A study of Homo sapiens with 12 samples.

Results

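The NF-κB subunit genes and the genes of their best known inhibitors were followed in MOLM-13 cells, an established acute myeloid leukaemia line that expresses the MLL-AF9 fusion protein and a FLT3 receptor made active by a tandem duplication. The 10 genes are those whose Ensembl identifiers map to NFKB1, NFKB2, REL, RELA, RELB, NFKBIA, NFKBIB, NFKBIE, TNFAIP3 and BCL3, out of 60668 genes counted, and that rule uses no measured value. All 10 were found and all 10 passed the filter on low counts. Cells were kept for 8 days with MI-3454 plus gilteritinib (the combination), MI-3454 alone, gilteritinib alone, or DMSO. MI-3454 keeps menin from binding MLL1, and gilteritinib inhibits the FLT3 kinase. Each group has 3 libraries of ribosome-depleted total RNA from cultures seeded in parallel, all 12 from the same line, so every group carries both leukaemia lesions. The sources used here give no doses.

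NF-κB is a family of dimeric transcription factors held in the cytoplasm by inhibitor proteins, the IκBs. A signal from a cytokine or pattern-recognition receptor activates the IκB kinases, the inhibitor is degraded, and the dimer enters the nucleus and switches on its targets, among which are several of its own subunits and inhibitors. RELA, REL and RELB carry the activation domains, while NFKB1 and NFKB2 encode precursors that are processed to DNA-binding partners. NFKBIA, NFKBIB and NFKBIE encode the IκB proteins alpha, beta and epsilon. TNFAIP3 encodes A20, a ubiquitin-editing enzyme that shuts down signalling upstream of the kinases, and BCL3 is a nuclear IκB-like protein that binds the NFKB1 and NFKB2 products. In monocytes and other myeloid cells the pathway is known for driving inflammatory cytokine genes.

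The libraries held 6.47 to 12.1 M gene counts, and the 10 genes had between 93 and 1770 raw counts in a library. Levels are given as CPM, counts per M counts of the library after TMM scaling. All 8 genes listed as markers of the myeloid line were detected in every library, with summed levels from 1872 to 2370 CPM. Single genes moved within that sum. Against DMSO, 5 were called higher and 1 lower with the combination and with MI-3454, and 4 and 1 with gilteritinib. The called shares were 75%, 75% and 62.5%, beside 57.5%, 19.0% and 15.1% of all genes. The lower gene was FLT3, at 191 CPM with the combination, 228 with MI-3454, 521 with gilteritinib and 698 with DMSO. Of 12 markers of other cell types, MS4A1 (B cells), HBB (red cells) and PPBP (platelets) were at 0 in every group. Of the 3 tested, PECAM1, which monocytes also express, held most of the list's signal and was called higher in all 3 comparisons with DMSO, averaging 487 CPM with the combination, 295 CPM with MI-3454, 231 CPM with gilteritinib and 175 CPM with DMSO. NCAM1 was called higher with the combination (log2 change 0.43) and MI-3454 (0.73), and COL1A1 with gilteritinib (1.41, at 3.00 CPM). The part of these markers in the results was not tested. Of 16 monocyte and granulocyte maturation markers, 14 were tested, and their number called higher than with DMSO was 14 with the combination, 13 with MI-3454 and 6 with gilteritinib. Their summed level was 19560 to 22150 CPM with the combination, 15520 to 17350 CPM with MI-3454, 6153 to 7397 CPM with gilteritinib and 3332 to 4101 CPM with DMSO. FCN1 was at 0 with DMSO, FCGR3A with gilteritinib, and S100A12 in all 3 groups other than the combination. Of uniquely placed reads, those assigned to no annotated feature made up 28.5%, 32.7% and 36.5% with the combination. Their share was 17.4% to 25.5% with MI-3454, 15.6% to 17.8% with gilteritinib and 16.6% to 20.4% with DMSO.

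The signal recognition particle RNA gene RN7SL1 took the largest share of counts in 1 library of each group. These were combination 1 (1.66%), MI-3454 3 (4.56%), gilteritinib 2 (2.88%) and DMSO 2 (4.27%). The same 4 libraries were the highest of their groups for 6 of the 10 genes (RELA, RELB, NFKBIA, NFKBIB, NFKBIE and BCL3) in all 4 groups. Among all 13972 genes tested, 15.4% showed that pattern. Results without these 4 libraries stand beside the calls of the 10 genes that they alter.

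Promoter sequences are shown because the family is known to act on its own genes through the κB site. RefSeq promoters (GRCh38.p14, 250 bases before to 50 after the annotated RefSeq start, 300 bases) were matched by symbol for 8 of the 10 genes, with 13 promoters in all. RELB and NFKBIE are the other 2. The motif GGGNNTTTCC was sought on both strands, so that its reverse complement also counts. It was found in 7 of the 13 promoters, belonging to 6 genes (NFKB1, NFKB2, REL, NFKBIA, NFKBIB and TNFAIP3), and in 668 of all 34943 promoters (1.91%). For 40 of the genes listed as NF-κB targets, 9 of 62 promoters held it (14.5%). A looser κB consensus, which includes the first, was in 8 of the 13 promoters, adding BCL3, and in 7.72% of all promoters. No match of either form lay in the 2 RELA promoters. Matches are given in capitals, and positions count from the RefSeq start. The first 3 lines show the whole promoter of the inhibitor with the largest change, of the best known feedback inhibitor and of the subunit gene that was higher with both agents.
TNFAIP3, chr6:137867009-137867308, plus strand, matches beginning 67 and 55 bases before the start: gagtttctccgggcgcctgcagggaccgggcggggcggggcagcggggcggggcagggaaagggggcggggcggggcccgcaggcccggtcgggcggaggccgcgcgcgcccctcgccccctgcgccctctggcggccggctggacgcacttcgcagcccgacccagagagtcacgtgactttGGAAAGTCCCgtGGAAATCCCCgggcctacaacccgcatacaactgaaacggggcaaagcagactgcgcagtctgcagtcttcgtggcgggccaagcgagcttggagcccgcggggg
NFKBIA, chr14:35404700-35404999, minus strand, match beginning 81 bases before the start: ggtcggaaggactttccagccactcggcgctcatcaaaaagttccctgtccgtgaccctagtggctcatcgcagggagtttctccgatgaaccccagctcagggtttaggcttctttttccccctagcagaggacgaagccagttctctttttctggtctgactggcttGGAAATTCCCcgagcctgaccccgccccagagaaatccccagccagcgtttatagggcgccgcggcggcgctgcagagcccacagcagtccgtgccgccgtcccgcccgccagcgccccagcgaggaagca
REL, chr2:60881324-60881623, plus strand, match beginning 46 bases before the start: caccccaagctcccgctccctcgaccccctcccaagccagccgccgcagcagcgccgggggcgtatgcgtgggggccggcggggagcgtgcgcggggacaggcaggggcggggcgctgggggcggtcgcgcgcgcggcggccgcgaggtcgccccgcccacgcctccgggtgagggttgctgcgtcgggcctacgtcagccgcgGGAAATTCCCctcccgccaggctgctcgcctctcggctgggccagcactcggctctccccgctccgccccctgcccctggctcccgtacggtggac
For the other genes the 40 bases around the match are enough to compare its letters.
NFKB1, chr4:102501295-102501334, plus strand, match 49 bases before the start: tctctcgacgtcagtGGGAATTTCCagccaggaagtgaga
NFKB2, chr10:102394485-102394524, plus strand, match 78 bases before the start: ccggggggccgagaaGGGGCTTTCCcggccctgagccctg
NFKB2, a later start, chr10:102395669-102395708, plus strand, match 21 bases before the start: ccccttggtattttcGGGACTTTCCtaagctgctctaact
NFKBIB, chr19:38899926-38899965, plus strand, match 28 bases before the start: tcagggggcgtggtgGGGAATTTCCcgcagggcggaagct
A match describes these letters, is no measure of binding, and a promoter without one may hold sites outside this window.

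In GENCODE 29 on GRCh38 all 10 genes are protein-coding. NFKB1 (ENSG00000109320.13) lies at chr4:102501329-102617302, NFKB2 (ENSG00000077150.20) at chr10:102394110-102402529 and REL (ENSG00000162924.14) at chr2:60881521-60931610, all on the plus strand. RELA (ENSG00000173039.19) lies at chr11:65653596-65663094 on the minus strand, and RELB (ENSG00000104856.14) at chr19:45001430-45038198 on the plus strand. NFKBIA (ENSG00000100906.10) lies at chr14:35401511-35404749 and NFKBIE (ENSG00000146232.16) at chr6:44258166-44265788, both on the minus strand. NFKBIB (ENSG00000104825.17) lies at chr19:38899700-38908893, TNFAIP3 (ENSG00000118503.15) at chr6:137867188-137883312 and BCL3 (ENSG00000069399.15) at chr19:44747705-44760044, all on the plus strand. Exons of RELA, NFKBIB and TNFAIP3 overlap exons of a gene on the opposite strand (AP001362.2, SIRT2 and AL357060.1). On their own strand, REL overlaps the noncoding AC010733.2 and BCL3 the microRNA gene MIR8085. The sources used here do not give the strand setting of the counting. Whether reads in exons shared with an opposite-strand gene were counted or left out is therefore not known. For the same-strand pairs no strand setting separates the reads.

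Per kilobase of annotated exon, TNFAIP3 stood at 11.9 ± 0.367 CPM per kb with the combination (SD, n = 3), below NFKBIE at 17.1 ± 1.98 and NFKBIA at 16.4 ± 1.10 CPM per kb. With MI-3454, gilteritinib and DMSO it had the highest level of the 10 genes, at 17.9 ± 0.607, 26.3 ± 0.991 and 32.1 ± 1.79 CPM per kb (SD, n = 3 each). REL was the lowest gene in every group, between 2.19 ± 0.226 CPM per kb with MI-3454 and 3.20 ± 0.136 CPM per kb with the combination. Its long annotated exon length, 13170 bases, enters that value. Among the activating subunits with DMSO, RELA stood at 14.5 ± 2.44 and RELB at 12.4 ± 0.829 CPM per kb, while the partner genes NFKB1 and NFKB2 stood at 10.1 ± 0.295 and 6.55 ± 0.922 CPM per kb.

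**Figure D1:**
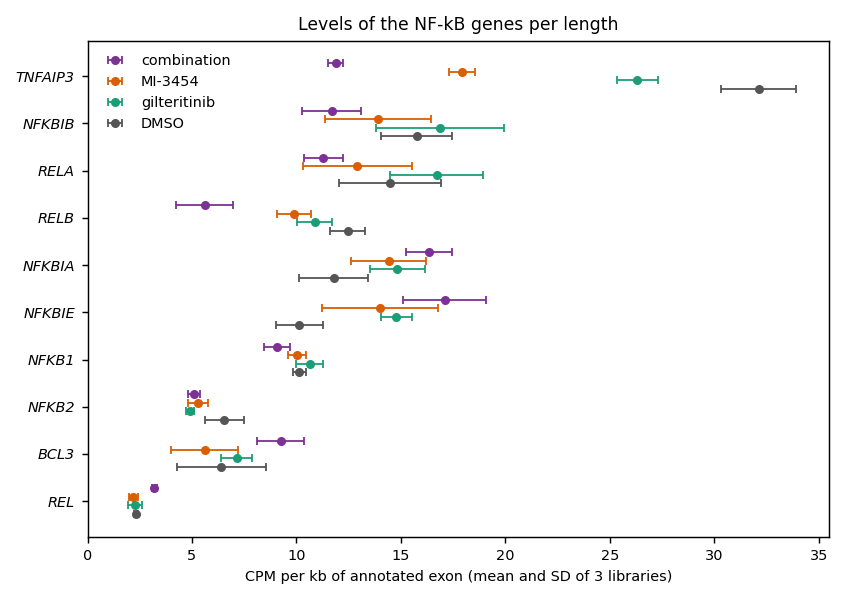
Level of each gene in CPM per kb of annotated exon (horizontal axis, linear), as the mean and SD of 3 libraries, with the combination above MI-3454, gilteritinib and DMSO within each gene. TNFAIP3 stands at 11.9 with the combination, within the range of the other genes, against 32.1 with DMSO, well to the right of them, and REL is lowest in every group.

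The combination moved most of the family. Of the 10 genes, 4 rose relative to DMSO (NFKBIE, BCL3, NFKBIA and REL) and 5 fell (TNFAIP3, RELB, NFKBIB, NFKB2 and RELA), at an adjusted p under 0.05 in edgeR's quasi-likelihood test. NFKB1 did not pass. Over all 13972 genes tested, 29.2% were called higher and 28.4% lower in this comparison, so a large number of calls is not particular to the family. The median log2 change of the 10 genes was -0.26, against about 0 (-0.00066) for all genes.

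TNFAIP3, the gene of A20, had 60.0, 61.8 and 58.1 CPM in the combination libraries, against 161, 154 and 172 CPM in the DMSO libraries. The highest combination library lay far below the lowest DMSO library. The fall was 2.7-fold (log2 change -1.44 ± 0.10 SE, adjusted p = 4.17e-09), the largest in the family, and it stayed between -1.51 and -1.33 in all alternatives tried. Fewer cells with the transcript and less transcript per cell cannot be told apart in bulk RNA.

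NFKBIE, which encodes IκB epsilon, had 49.99, 41.6 and 40.8 CPM with the combination, against 23.7, 29.4 and 25.4 CPM with DMSO. The groups did not overlap, and the rise was 1.69-fold (log2 change 0.76 ± 0.13, adjusted p = 9.71e-05). NFKBIA, which encodes IκB alpha, had 41.6, 38.4 and 36.4 CPM with the combination and 24.8, 32.4 and 26.7 CPM with DMSO. All 3 combination libraries lay above all 3 DMSO libraries (log2 change 0.48 ± 0.13, adjusted p = 0.00448). The third IκB gene moved the opposite way. NFKBIB, for IκB beta, had 30.9, 25.8 and 24.7 CPM with the combination and 35.6, 41.0 and 33.3 CPM with DMSO, again without overlap (log2 change -0.43 ± 0.13, adjusted p = 0.0101). Its adjusted p was 0.055 without combination replicate 2 and 0.055 without combination replicate 3.

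BCL3 had 33.7, 26.4 and 29.8 CPM with the combination, against 20.6, 27.8 and 13.9 CPM with DMSO, and here the groups overlapped because of DMSO replicate 2. Its rise (log2 change 0.53 ± 0.19, adjusted p = 0.0236) was not called without DMSO replicate 1 (0.084), DMSO replicate 3 (0.31 with adjusted p = 0.11), combination replicate 1 (0.099) or combination replicate 3 (0.052).

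Among the subunit genes, RELB had 21.5, 16.3 and 13.2 CPM with the combination, against 36.8, 40.6 and 35.9 CPM with DMSO. RELB pairs mainly with the NFKB2 product in the alternative pathway. No combination library came near the DMSO libraries, and the fall was 2.19-fold (log2 change -1.13 ± 0.15, adjusted p = 9.06e-06). NFKB2 had 23.3, 21.4 and 23.7 CPM with the combination and 30.1, 33.1 and 24.9 CPM with DMSO (log2 change -0.37 ± 0.13, adjusted p = 0.0257). Its groups did not overlap, but the gap between combination replicate 3 and DMSO replicate 3 was small.

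REL, the gene of c-Rel, was the subunit gene that rose. It had 42.1, 40.3 and 43.9 CPM with the combination, against 31.4, 31.3 and 29.2 CPM with DMSO, and the groups lay apart (log2 change 0.46 ± 0.11, adjusted p = 0.00232). RELA, the gene of the p65 subunit, had 65.3, 63.9 and 55.8 CPM with the combination and 75.1, 94.1 and 68.4 CPM with DMSO (log2 change -0.36 ± 0.13, adjusted p = 0.0217). NFKB1, whose product is the usual partner of RELA, had 59.0, 59.1 and 52.3 CPM with the combination and 65.0, 61.4 and 63.8 CPM with DMSO. Its 3 combination libraries lay below the DMSO libraries, but the change was small (log2 change -0.16 ± 0.11, adjusted p = 0.215).

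The falls of NFKB2 and RELA were the least secure. Scaling by total counts, which put the median log2 change of all genes at 0.10 in this comparison, gave -0.26 for NFKB2 (adjusted p = 0.10) and -0.25 for RELA (adjusted p = 0.081). NFKB2 was also not called without DMSO replicate 1 (0.065), combination replicate 1 (0.053) or combination replicate 2 (0.12), and RELA without DMSO replicate 2 (0.052) or combination replicate 3 (0.10). The maturation markers and the share of reads assigned to no feature, given above, move with the same contrast. Their part in these changes was not tested.

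**Figure D2:**
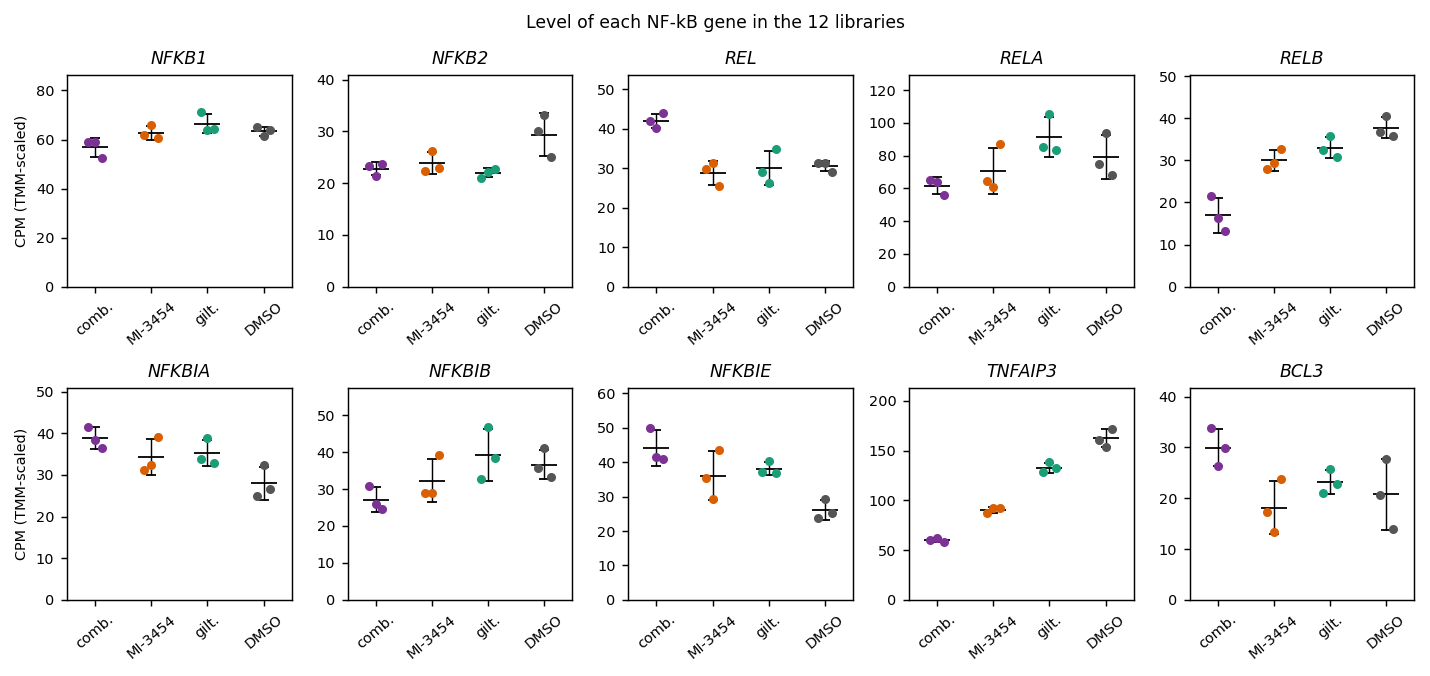
Level of each gene in every library in TMM-scaled CPM (vertical axes, linear from 0), 1 panel a gene, with the combination leftmost and DMSO rightmost; points are libraries, bars the mean and SD of 3. TNFAIP3 averages 60.0 CPM with the combination, against 162 CPM with DMSO, the combination libraries lie lowest for RELB and highest for REL, and RELA, NFKBIB and BCL3 scatter widely within groups.

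With MI-3454 alone, only TNFAIP3 was called among the 10 genes, and it fell. It had 87.0, 92.2 and 92.4 CPM with MI-3454, against 161, 154 and 172 CPM with DMSO, with a wide gap between the groups (log2 change -0.84 ± 0.11, 1.79-fold lower, adjusted p = 0.000166). Over all genes, 10.1% were called higher and 8.95% lower. The median of the 10 log2 changes was -0.17, against 0.0032 over all genes.

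NFKBIE had 35.4, 29.35 and 43.6 CPM with MI-3454, and MI-3454 replicate 2 lay just below DMSO replicate 2, at 29.42 CPM (log2 change 0.46 ± 0.16, adjusted p = 0.0675). It was called without DMSO replicate 2 (adjusted p = 0.031), without MI-3454 replicate 2 (0.037) and without the 4 libraries highest in RN7SL1 (0.025). RELB had 27.9, 29.4 and 32.7 CPM with MI-3454, all below the 3 DMSO libraries (log2 change -0.33 ± 0.13, adjusted p = 0.0931), and was called without the libraries highest in RN7SL1 (0.024). For NFKBIA the values were 31.1, 32.3 and 39.1 CPM with MI-3454 (log2 change 0.29 ± 0.15, adjusted p = 0.211). NFKB2 had 22.3, 26.3 and 22.8 CPM with MI-3454, overlapping DMSO through MI-3454 replicate 2 (log2 change -0.30 ± 0.15, adjusted p = 0.184).

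The other 5 genes had log2 changes from -0.20 to -0.02 with MI-3454, and their libraries overlapped those with DMSO. RELA had 64.2, 60.5 and 87.0 CPM (log2 change -0.17), NFKBIB 28.9, 28.8 and 39.1 CPM (-0.18) and BCL3 17.3, 13.4 and 23.8 CPM (-0.20). In all 3 the highest library was MI-3454 replicate 3. REL had 29.7, 31.3 and 25.6 CPM (-0.09) and NFKB1 61.7, 65.9 and 60.5 CPM (-0.02).

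With gilteritinib alone, NFKBIE rose and NFKB2 fell. NFKBIE had 37.1, 40.4 and 37.0 CPM with gilteritinib, against 23.7, 29.4 and 25.4 CPM with DMSO, and the groups lay apart (log2 change 0.54 ± 0.12, 1.46-fold higher, adjusted p = 0.00955). NFKB2 had 21.0, 22.2 and 22.7 CPM with gilteritinib and 30.1, 33.1 and 24.9 CPM with DMSO, also without overlap (log2 change -0.42 ± 0.13, 1.34-fold lower, adjusted p = 0.0478). Over all genes, 6.92% were called higher and 8.18% lower. The median of the 10 log2 changes was 0.08, against -0.00063 over all genes.

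Deviations from the group means correlated weakly between libraries of the same replicate number in this pair (r = 0.142, 0.386 and 0.11). The largest r, at number 2, joins the 2 libraries highest in RN7SL1. Deviations from a group mean cancel within the group, so the r at the other numbers are not independent of number 2. In this pair of groups, pairing cannot be told apart from the RN7SL1 pattern. With the replicate number as a block, the number of the 10 genes called was 5, against 2 without it. The blocked calls were NFKBIE (0.55, adjusted p = 2.96e-06), NFKB2 (-0.42, adjusted p = 0.00113), TNFAIP3 (-0.29, adjusted p = 0.00131), NFKBIA (0.34, adjusted p = 0.00404) and RELA (0.21, adjusted p = 0.0282). Over all genes the block gave 4928 calls, against 2110 without it. Without the block, TNFAIP3 had a log2 change of -0.29 ± 0.09 (adjusted p = 0.0617), with 128, 138 and 133 CPM in the gilteritinib libraries, all below the DMSO libraries. NFKBIA had 33.9, 38.8 and 32.9 CPM with gilteritinib, all above the DMSO libraries (log2 change 0.33 ± 0.13, adjusted p = 0.112). RELA had 85.4, 105 and 83.3 CPM with gilteritinib, and the groups overlapped (log2 change 0.20 ± 0.14, adjusted p = 0.338).

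RELB had 32.4, 35.7 and 30.8 CPM with gilteritinib, all slightly below the DMSO libraries (log2 change -0.20 ± 0.11, adjusted p = 0.266). NFKBIB (32.6, 46.7 and 38.3 CPM, log2 change 0.09), BCL3 (21.0, 25.8 and 22.8 CPM, 0.15), NFKB1 (71.2, 64.1 and 64.3 CPM, 0.07) and REL (29.1, 26.4 and 34.8 CPM, -0.03) overlapped DMSO. Without the 4 libraries highest in RN7SL1, and with no block, TNFAIP3 (-0.35, adjusted p = 0.0022), NFKBIA (0.38, adjusted p = 0.0085) and RELA (0.24, adjusted p = 0.031) were called too, as they were without DMSO replicate 2 (adjusted p from 0.012 to 0.034). NFKBIE lost its unblocked call without DMSO replicate 1 (0.47, adjusted p = 0.055). NFKB2 lost it without any of the 3 gilteritinib libraries (0.098 to 0.16), DMSO replicate 1 (0.14) or DMSO replicate 2 (0.057), and with DESeq2 (0.057).

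**Figure D3:**
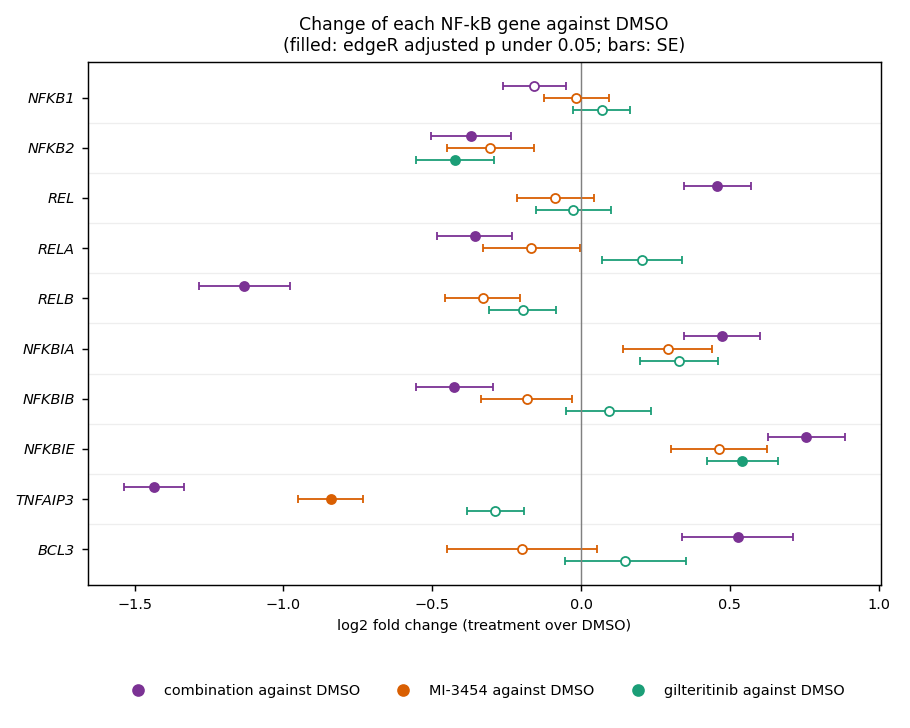
Log2 fold change of each gene against DMSO (horizontal axis) for the combination, MI-3454 and gilteritinib, with SE bars; filled points have an edgeR adjusted p under 0.05 in the fits without a block. The combination has 9 filled points and spans -1.44 for TNFAIP3 to 0.76 for NFKBIE, MI-3454 has 1 and gilteritinib 2.

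Adding gilteritinib to MI-3454 changed 4 of the 10 genes. Relative to MI-3454 alone, BCL3 and REL rose with the combination, and RELB and TNFAIP3 fell. BCL3 had 33.7, 26.4 and 29.8 CPM with the combination, against 17.3, 13.4 and 23.8 CPM with MI-3454 (log2 change 0.73 ± 0.18, adjusted p = 0.0114). The groups did not overlap, though the call was lost without MI-3454 replicate 1 (0.060). REL was 1.47-fold higher (log2 change 0.55 ± 0.11, adjusted p = 0.00381), RELB 1.74-fold lower (-0.79 ± 0.16, adjusted p = 0.00371) and TNFAIP3 1.5-fold lower (-0.59 ± 0.09, adjusted p = 0.000692), each without overlap. The other 6 genes had log2 changes from -0.24 to 0.30. Of these, NFKBIE was called higher under total-count scaling, without the 4 libraries highest in RN7SL1 and, together with NFKBIA, without MI-3454 replicate 3. Over all genes, 14.1% were called higher and 15.1% lower. Scaling by total counts gave 2472 higher and 1437 lower genes, against 1972 and 2103 with TMM.

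Adding MI-3454 to gilteritinib changed 7 of the 10. Relative to gilteritinib alone, REL (log2 change 0.49 ± 0.10, adjusted p = 0.00111) and BCL3 (0.39 ± 0.12, adjusted p = 0.0115) rose. TNFAIP3 (-1.14 ± 0.08, adjusted p = 1.85e-08), RELB (-0.92 ± 0.14, adjusted p = 8.63e-05), RELA (-0.55 ± 0.10, adjusted p = 0.000334), NFKBIB (-0.51 ± 0.13, adjusted p = 0.00437) and NFKB1 (-0.22 ± 0.08, adjusted p = 0.0343) fell. In all 7 the combination libraries lay outside the range of the gilteritinib libraries. NFKB2, NFKBIA and NFKBIE had log2 changes from 0.06 to 0.22. Over all genes, 30.1% were called higher and 30.3% lower, so the family's share is again set against a high background. Total-count scaling put the median log2 change of all genes at 0.13 and gave 5010 higher and 3140 lower genes, against 4210 and 4229 with TMM. Under it NFKB1 was at -0.10 (adjusted p = 0.40), and NFKBIA and NFKBIE were called higher. NFKBIE was also called without gilteritinib replicate 2 or combination replicate 3. NFKB1 was also not called with DESeq2 (0.072) or without gilteritinib replicate 1 (0.15), gilteritinib replicate 3 (0.050), combination replicate 2 (0.062) or combination replicate 3 (0.13), nor BCL3 without gilteritinib replicate 1 (0.061) or combination replicate 1 (0.065).

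Between the single agents, TNFAIP3 was again the gene called. It had 87.0, 92.2 and 92.4 CPM with MI-3454, against 128, 138 and 133 CPM with gilteritinib, and the groups lay apart (log2 change -0.56 ± 0.09, adjusted p = 0.00115). The other 9 genes had log2 changes from -0.38 to 0.11 for MI-3454 over gilteritinib. Over all genes, 9.96% were called higher and 7.43% lower. Without MI-3454 replicate 3, and also without the 4 libraries highest in RN7SL1, 4 of the 10 genes were called lower with MI-3454, BCL3, NFKBIB and RELA beside TNFAIP3. The background grew in these fits as well. Of all 13972 genes, 2391 were called lower and 2299 higher without MI-3454 replicate 3. Without the libraries highest in RN7SL1 the numbers were 2692 and 2441, against 1038 and 1392 with no library left out.

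The interaction term measures by how much the log2 change with both agents differs from what the 2 single changes add up to. REL was the gene of the family called, at 0.57 ± 0.16 (adjusted p = 0.0276). Its levels overlapped between MI-3454, gilteritinib and DMSO, at 25.6 to 34.8 CPM, and were 40.3 to 43.9 CPM with the combination. The call was lost with the replicate block (0.57, adjusted p = 0.052), without gilteritinib replicate 1 (0.056), gilteritinib replicate 2 (0.059), MI-3454 replicate 3 (0.056) or combination replicate 3 (0.060), and without the 4 libraries highest in RN7SL1 the term was 0.38 (adjusted p = 0.066).

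RELB had an interaction term of -0.61 ± 0.20 (adjusted p = 0.0519). It was called without DMSO replicate 2 (0.036), combination replicate 1 (0.0078) or the libraries highest in RN7SL1 (0.0013). TNFAIP3 had a term of -0.31 ± 0.11 (adjusted p = 0.0812), so a departure from the sum of both changes was not called for the gene that changed most. The other 7 genes had terms from -0.39 to 0.58. Over all genes, 6.55% were called above the sum and 8.74% below it. Total-count scaling put the median of all genes at 0.11 and gave 1120 above and 808 below, against 915 and 1221 with TMM.

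**Figure D4:**
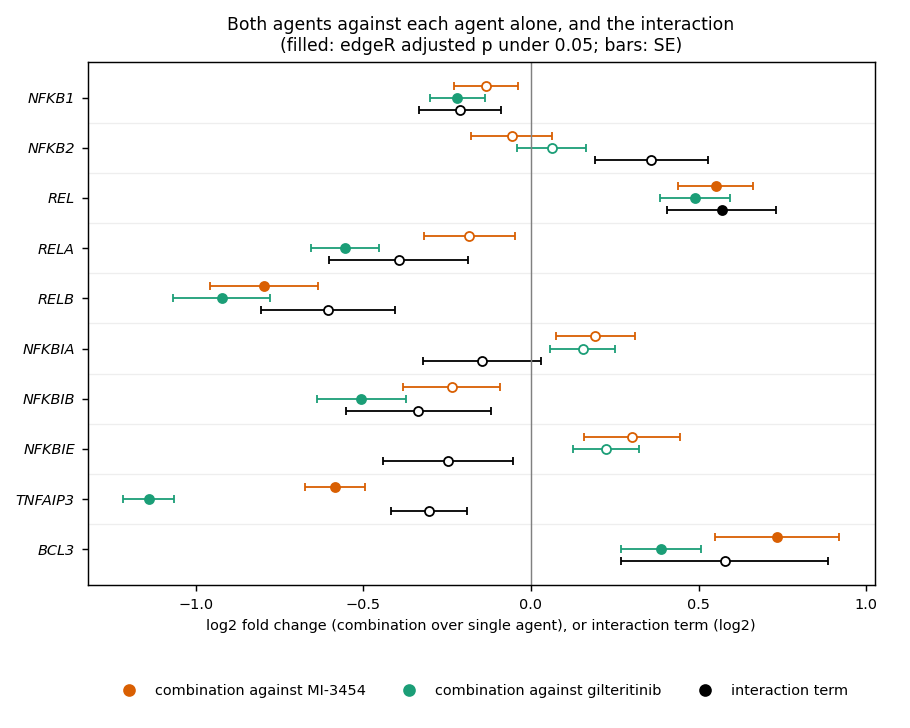
Log2 fold change of the combination over MI-3454 and over gilteritinib, and the interaction term (horizontal axis, log2), with SE bars for each gene; filled points have an edgeR adjusted p under 0.05. REL is the gene filled in all 3, at 0.49 to 0.57, and RELB and TNFAIP3 are lower in the combination against either agent alone.

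Ordered by mean level, TNFAIP3 and RELB ran from combination through MI-3454 and gilteritinib to DMSO, lowest to highest. For TNFAIP3 the steps from the combination to MI-3454 and from MI-3454 to gilteritinib differed, and that from gilteritinib to DMSO did not pass without the block. For RELB only the step from the combination to MI-3454 did. NFKBIA and NFKBIE ran the other way, highest with the combination and lowest with DMSO, through gilteritinib and then MI-3454, and no neighbours in that order differed. REL was highest with the combination, which differed from the next group, DMSO. BCL3 was likewise highest with the combination, which differed from gilteritinib, the next in order. NFKB1, RELA and NFKBIB ran from gilteritinib through DMSO and MI-3454 to the combination with no neighbours differing. NFKB2 was highest with DMSO and lowest with gilteritinib, again with no neighbours differing.

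Over the 12 libraries some of the genes followed each other. Log2 CPM of NFKBIA and NFKBIE had a Pearson r of 0.94 and that of RELA and NFKBIB 0.93, while RELB and TNFAIP3 had 0.89. The most opposed pair was REL and RELB at -0.83. The libraries share treatment groups, depth and the RN7SL1 pattern given above, so these values are descriptions. Of the other 13971 genes tested, the levels most like TNFAIP3 were those of BCL2 (r = 0.994), PDGFA (0.991) and SRPK3 (0.991). Among those most like RELB were TEAD3 (0.987) and TTLL12 (0.984). NFKBIE was most like PEPD (0.992), HEIH (0.97) and TTC7A (0.969).

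Other genes of the pathway were followed in 6 lists with 118 distinct genes, of which 97 were tested. With the combination 45 were called higher and 21 lower than with DMSO, with MI-3454 25 and 11, and with gilteritinib 12 and 8. The called share was 68.0%, 37.1% and 20.6% in that order, beside 57.5%, 19.0% and 15.1% of all genes tested. Their median log2 changes were 0.20, 0.16 and 0.0098, and those of all genes lay within 0.0032 of 0. The maturation markers, given above, were higher in the same contrasts, and their part in these counts was not tested.

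Receptor genes had the largest median log2 change of the 6 lists with the combination (1.68) and with MI-3454 (1.14), but 0.019 with gilteritinib. Of 12 tested, 9 rose and 2 fell with the combination, 8 rose with MI-3454, and 2 rose and 2 fell with gilteritinib. These are 91.7%, 66.7% and 33.3% called, beside 57.5%, 19.0% and 15.1% of all genes. TLR4, the lipopolysaccharide receptor, had 188 ± 11.1 CPM with the combination, 158 ± 29.4 CPM with MI-3454, 33.9 ± 2.81 CPM with gilteritinib and 16.2 ± 2.21 CPM with DMSO (SD, n = 3 each). It was called higher in all 3 comparisons, at log2 changes of 3.54, 3.29 and 1.07. TLR2, a receptor of bacterial lipoproteins, rose by 2.45 with the combination and 2.30 with MI-3454 on the log2 scale, and NOD2, a sensor of cell wall peptides, by 2.15 and 1.88. TLR8, a sensor of single-stranded RNA, had a single count over the 3 DMSO libraries. Its ratio was 271 with the combination (95% counting interval 48.1 to 10730) and 81.8 with MI-3454 (14.2 to 3272), which covers counting error only. With gilteritinib TNFRSF14 rose (0.76) and IL1RAP, the shared co-receptor of the interleukin-1 family, fell (-0.69). The BAFF receptor gene TNFRSF13C fell too (-1.43), at under 2 CPM. With the combination TNFRSF14 (2.05) was also called higher, and IL1RAP (-0.53) and TNFRSF13C (-1.24) lower. TNFRSF14 rose with MI-3454 as well (1.52). The gilteritinib call for TNFRSF13C was lost when any library other than DMSO replicate 1 was left out (adjusted p from 0.064 to 0.12). That for TNFRSF14 was lost without DMSO replicate 1 (0.064) or DMSO replicate 3 (0.059).

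Of 7 ligand genes tested, 4 rose and 3 fell with the combination, 3 rose with MI-3454 and 1 rose with gilteritinib. These are 100%, 42.9% and 14.3% called, beside 57.5%, 19.0% and 15.1% of all genes, so the gilteritinib share is near that of all genes. TNF, the best known activator of the pathway, had 148 ± 2.28 CPM with gilteritinib, against 66.7 ± 11.1 CPM with DMSO (log2 change 1.15 ± 0.12, adjusted p = 4.74e-05). With the combination it had 51.3 ± 4.53 CPM and fell (-0.38 ± 0.13, adjusted p = 0.0183). TNFSF13B, which encodes BAFF, rose by 1.88 with the combination and 1.83 with MI-3454 on the log2 scale, and TNFSF14 by 1.97 and 0.92. IL1B rose by 2.40 and 2.93, though it stayed under 5 CPM, and IL18 fell by 1.59 with the combination.

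Adaptor and ubiquitin ligase genes showed no common direction. Of 20 tested, 5 rose and 4 fell with the combination, and the called share of 45.0% was below that of all genes. With MI-3454 and gilteritinib the called shares were 15% and 5%, also below the 19.0% and 15.1% of all genes. TRAF1 had 2.18 ± 0.403 CPM with the combination, against 8.12 ± 1.95 CPM with DMSO (log2 change -1.90 ± 0.25, adjusted p = 7.22e-06). TRAF3, which restrains the alternative pathway by directing degradation of its kinase, fell by 0.80, and RIPK2, the kinase downstream of NOD2, by 0.69, while IRAK2 rose by 1.01. With MI-3454, TRAF1 (-0.84), CARD9 (-0.69) and IRAK1 (-0.41) fell, and with gilteritinib CARD9 (-0.65). IRAK1 also fell with the combination (-0.63). Each of the calls with MI-3454 was lost without MI-3454 replicate 1 or MI-3454 replicate 2 (adjusted p from 0.078 to 0.16), and that of CARD9 with gilteritinib without gilteritinib replicate 1 (0.091), gilteritinib replicate 3 (0.13) or DMSO replicate 2 (0.060).

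Of the 12 kinase genes, 8 rose with the combination, at a median log2 change of 0.41 over the list. The called share was 66.7%, beside 57.5% of all genes. With MI-3454 and gilteritinib it was 16.7% and 8.33%, below the 19.0% and 15.1% of all genes. MAP3K14, the kinase of the alternative pathway known as NIK, had 24.5 ± 2.40 CPM with the combination, against 12.9 ± 3.00 CPM with DMSO (log2 change 0.92 ± 0.16, adjusted p = 0.000144). IKBKE, an IKK-related kinase, rose by 1.24 with the combination and by 1.12 with MI-3454. MAP3K8 rose by 0.99 and 0.63, and MAP3K3 by 0.98 with the combination. MAP3K8 was not called with MI-3454 when any library other than MI-3454 replicate 3 was left out (adjusted p from 0.070 to 0.19). TAB1, a partner of the kinase TAK1, rose by 0.64 with gilteritinib and by 0.56 with the combination.

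Other inhibitors and regulators numbered 17 tested genes. With the combination 6 rose and 2 fell, with MI-3454 4 rose, and with gilteritinib 2 rose and 1 fell. These are 47.1%, 23.5% and 17.6% called, near or below the shares of all genes. PDLIM2, a ubiquitin ligase that acts on nuclear RELA, had 98.7 ± 1.22 CPM with the combination, 71.9 ± 12.4 CPM with MI-3454, 44.1 ± 2.33 CPM with gilteritinib and 24.1 ± 1.47 CPM with DMSO, and was called higher in all 3 comparisons. NFKBIZ, a nuclear IκB-like protein as BCL3 is, rose by 0.78 with the combination and 0.52 with MI-3454, and fell by 0.76 with gilteritinib. ZC3H12A, an RNase that degrades cytokine transcripts, rose by 0.83, 0.68 and 0.61 in the 3 comparisons. CYLD, a deubiquitinase that acts like A20 on signalling upstream of the kinases, rose by 0.62 with the combination. TNFAIP8L2 rose by 0.55 with MI-3454 and by 0.42 with the combination. Without DMSO replicate 1, and without DMSO replicate 3, the list had 1 gene called higher with MI-3454 and 1 with gilteritinib. NFKBIZ was not called with MI-3454 when any library other than DMSO replicate 2 was left out (adjusted p from 0.052 to 0.14).

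Genes known as NF-κB targets moved in both directions. Of 36 tested, 17 rose and 12 fell with the combination, 12 rose and 9 fell with MI-3454, and 8 rose and 5 fell with gilteritinib. The called shares were 80.6%, 58.3% and 36.1%, beside 57.5%, 19.0% and 15.1% of all genes. ICAM1, an adhesion molecule, had 6.95 ± 0.719 CPM with gilteritinib, against 44.6 ± 4.07 CPM with DMSO (log2 change -2.67 ± 0.14, adjusted p = 1.48e-07). It also fell with MI-3454 (-2.03, adjusted p = 2.24e-06, 10.9 CPM) and with the combination (-1.89, adjusted p = 1.05e-08, 11.9 CPM). The chemokine gene CCL3 had 1.02 ± 0.414 CPM with the combination, against 12.6 ± 0.820 CPM with DMSO (-3.54 ± 0.25, adjusted p = 3.79e-09). CCL4 had a single count over the combination libraries and was lower by a ratio of 95.4 (95% counting interval 16.8 to 3805), and its reads can be lost to near-identical copies. CD80, a costimulatory ligand, had no counts with MI-3454 and 5.93 ± 1.08 CPM with DMSO, which makes it at least 54.6-fold lower when the group's total is set to the floor of 3 counts. With 2 counts each, it was lower by ratios of 82.3 (22.5 to 684) with the combination and 86.0 (23.5 to 716) with gilteritinib. MMP9 rose by 3.42 with the combination and 4.07 with MI-3454, from 7 counts over the DMSO libraries. CXCL8 rose with MI-3454 (2.63) and the combination (2.79). PLAU fell with gilteritinib (-0.90), MI-3454 (-0.66) and the combination (-1.24). Leaving out a gilteritinib library, DMSO replicate 1 or DMSO replicate 3 lowered the count called higher with gilteritinib to between 3 and 5.

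With the replicate block in gilteritinib against DMSO, the counts called higher and lower were 2 and 1 for ligands and 4 and 2 for receptors. They were 4 and 6 for adaptors and ubiquitin ligases, 3 and 1 for kinases, 3 and 5 for other inhibitors, and 11 and 9 for targets. Leaving out DMSO replicate 2 moved the unblocked counts the same way in 3 lists, to 3 adaptors higher, 3 kinases higher and 3 other inhibitors lower with gilteritinib. With MI-3454 the kinases called higher numbered 1 without DMSO replicate 1 or 3 or MI-3454 replicate 1 or 2. With the combination 1 receptor was called lower without DMSO replicate 2, combination replicate 1 or combination replicate 3, and 1 other inhibitor without combination replicate 2 or 3.

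**Figure D5:**
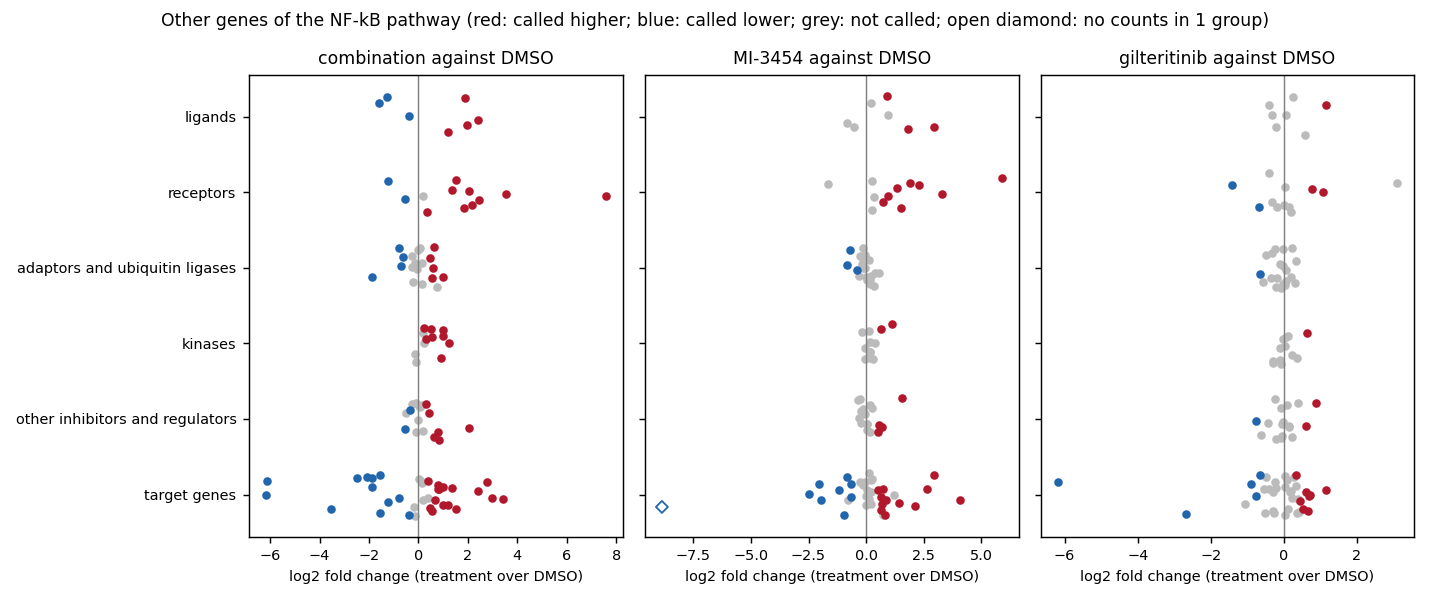
Log2 fold change over DMSO (horizontal axes, each panel with its own range) of the tested genes of 6 pathway lists, 1 point a gene, for the combination, MI-3454 and gilteritinib; red and blue points are called higher and lower, grey points are not called, and the open diamond is CD80, with no counts with MI-3454. Receptors lean to the right with the combination and MI-3454, kinases with the combination have 8 red points, and targets spread to both sides in all 3 panels; points beyond 5 in size, TLR8, CD80 and CCL4, rest on 0 to 2 counts in 1 group.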

How the data were processed

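RNA was measured in 12 libraries, 3 in each of 4 groups taken from the sample titles. Where a treatment label gave MI-3454 another trailing number, the title was followed. The deposited files hold whole-number read counts per gene, not normalized by the authors, as the file contents show. Per the submitters' processing notes the tools were STAR 2.7.1a, cutadapt 2.1, DESeq2 and HTSeq 0.11.2, on GRCh38. The sources used here give neither annotation release nor strand setting. HTSeq's usual setting leaves out reads with several placements, which lowers the counts of near-identical genes. Gene names came from a table joined on the Ensembl identifier (60340 of 60668 genes) and positions from GENCODE 29 (58561 genes).

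Counts were tested in R 4.3.3 with edgeR 4.0.16 (quasi-likelihood, TMM, filterByExpr over 12 libraries). That kept 13972 of 30849 genes with a count. Each pair of groups had its own fit, the interaction used all 12 libraries, and p was adjusted by Benjamini and Hochberg over all genes tested with a threshold of 0.05. SE was computed from each log2 change and the F statistic. CPM is TMM-scaled over the 12 libraries. A group at 0 was set against a floor of 3 counts, and 1 to 3 counts have an exact 95% interval, both covering counting error only. The tests were checked on simulated counts. DESeq2 1.42.0, other scalings, no filter, a replicate block and left-out libraries were alternatives.

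The 10 genes, the pathway and marker lists and the tests were chosen with earlier results of these data known. Named were all 10 genes against DMSO, the called ones elsewhere, up to 4 called genes a list with the largest change, and for 3 genes the 3 most like by Pearson r, of which 1 is not reported here. The text also gives TNF with the combination and genes with interaction terms, chosen after their values were seen. Further called comparisons of ICAM1, CXCL8, PLAU, TNFRSF14, TNFRSF13C, IL1RAP, TAB1, IRAK1 and TNFAIP8L2 were added in the same way. Replicate numbers in the titles were taken to pair gilteritinib with DMSO libraries, whose deviations from the group means correlated at 0.142, 0.386 and 0.11 for the 3 numbers. No other pair of groups had all 3 above 0.1, but correlations between different numbers are not given for comparison. Only in this pair do the libraries highest in RN7SL1 share a number, so these values do not establish pairing. The p-values measure the spread between cultures of 1 line seeded in parallel. Depth, 6.47 to 12.1 M counts, limits precision for genes at a few CPM.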

Additional observations from a re-analysis of the deposited data

Results flagged for a closer look

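Among the genes named in the report, the effect of 1 agent differed for 13 with the presence of the other, by the interaction term of the fit over 12 libraries (log2 change with both agents minus the sum of the changes with each, edgeR adjusted p under 0.05). In the family itself this was REL, at 0.57 ± 0.16 (SE, adjusted p = 0.0276), a call lost with the replicate block (adjusted p = 0.052). Of all 97 pathway genes tested, 25 were called for this term, 16 above 0 and 9 below. Those not named in the report are counted here without their values. Over all 13972 genes tested, 2136 were called, 6.55% above 0 and 8.74% below. Most named list genes had been picked for large changes against DMSO, so the 13 give no share of the lists.

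A term above 0 means that the log2 change with both agents lay above the sum, not that the gene rose. Named genes with such terms were ICAM1 (2.81 ± 0.22, adjusted p = 7.54e-07), CARD9 (1.07 ± 0.26, 0.0132), IRAK2 (1.06 ± 0.28, 0.0179) and NFKBIZ (1.02 ± 0.19, 0.0020). The others were TNFSF14 (0.99 ± 0.23, 0.00851), MAP3K14 (0.81 ± 0.22, 0.0241), CYLD (0.68 ± 0.20, 0.0306) and MAP3K3 (0.45 ± 0.13, 0.0312). ICAM1 was lower than with DMSO with each agent and with both, and its term says that the falls did not add up.

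Named genes with terms below 0 were CCL3 (-3.42 ± 0.42, adjusted p = 6.6e-05), TNF (-1.74 ± 0.19, 1.75e-05), TLR4 (-0.82 ± 0.19, 0.00927) and TAB1 (-0.46 ± 0.14, 0.0410). TNF, the ligand gene, averaged 51.3 CPM with the combination, 77.6 CPM with MI-3454, 148 CPM with gilteritinib and 66.7 CPM with DMSO. For TLR4, a gene higher with each agent and with both, the term says that the change with both fell short of the sum. Named genes with 3 or fewer counts in a group were left out of the 13.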

How the results depend on the processing

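Of 564 recomputed log2 changes of the 10 genes, 504 kept their direction and side of the threshold, 16 were called where they had not been, 37 lost a call and 7 turned sign. Of 728 for other named genes 674 were kept and 54 lost a call. The cause was not tested. Outside the comparisons with DMSO the 10 genes entered this tally only where called, and other named genes only where called. Calls gained in those cases are therefore not in it.

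The number of the 10 genes called with MI-3454 against DMSO was 2 with all libraries in 1 fit, 2 without the low-count filter, 3 without the 4 libraries highest in RN7SL1, and 1 to 2 with a library left out. With gilteritinib against DMSO it was 1 with DESeq2, 1 with DESeq2's size factors, 5 with the replicate block, 5 without the libraries highest in RN7SL1, and 0 to 4 with a library left out (3 genes at an unadjusted p under 0.05 in the edgeR fit that called 0). For MI-3454 against gilteritinib it was 2 without the filter, 4 without the libraries highest in RN7SL1 and 1 to 4 with a library left out. For the interaction it was 3 without the filter, 0 in edgeR with the replicate block (3 at an unadjusted p under 0.05, and 1 with DESeq2), and 0 to 2 with a library left out.

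Over all genes, calls for MI-3454 against DMSO numbered 1678 with the replicate block. For gilteritinib against DMSO they numbered 4928 with the block, 4250 without the libraries highest in RN7SL1 and 1243 to 3985 with a library left out. The last range was 2456 to 5074 for the combination against MI-3454, 1588 to 4690 for MI-3454 against gilteritinib and 1305 to 2698 for the interaction; without the libraries highest in RN7SL1, MI-3454 against gilteritinib gave 5133 and the interaction 3478.

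Signs turned for small changes. Without the libraries highest in RN7SL1, REL was at 0.0056 with MI-3454 and 0.0726 with gilteritinib. With a library left out, NFKB1 ran from -0.0528 to 0.0074 and BCL3 from -0.4478 to 0.0703 with MI-3454, and REL from -0.1409 to 0.0568, NFKBIB from -0.05 to 0.2132 and BCL3 from -0.0643 to 0.4108 with gilteritinib.

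Replicate numbers were taken to pair libraries in gilteritinib against DMSO only because of the weak correlations given above. Such correlations cannot be told apart from the RN7SL1 pattern. Blocked values stand with the results of that pair. In the other comparisons the numbers are shared without that sign, and the block gave 1 called gene of the 10 for MI-3454 against DMSO, 9 for the combination against DMSO, 4 against MI-3454 and 7 against gilteritinib.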
